A study of Mus musculus with 6 samples.

Results

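The polyamine metabolism genes described here are Odc1, Oaz1, Oaz2, Azin1, Amd1, Srm, Sms, Sat1 and Smox, taken as the rows of the deposited gene table that carry these symbols. All 9 were found, each on 1 row of the 27179 in the table. The table came from RNA-sequencing of B16F10, an established mouse melanoma line labelled wild type, grown in DMEM with 10% serum. There were 3 libraries of cells given 0.01% ozonated olive oil (OZO) and 3 of cells given 0.01% of the olive oil it is made from (OLO), each for 6 h, so both groups received oil and neither is an untreated control. The only value per gene used here is the mean log2 expression that the authors computed over all 6 libraries. The remaining columns hold their own comparison of OZO with OLO and were not used, so no difference between the oils is given. The results below are the levels of the polyamine genes in these cells with both treatments averaged, and no replicate error can be attached to them.

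Polyamines (putrescine, spermidine and spermine) are small cations that bind nucleic acids and are needed for cell growth. Ornithine decarboxylase makes putrescine from ornithine, and S-adenosylmethionine decarboxylase supplies the aminopropyl groups that spermidine synthase and spermine synthase add. Antizymes bind ornithine decarboxylase and send it to the proteasome, antizyme inhibitors take the antizymes away again, and acetylation or oxidation returns spermine and spermidine to smaller polyamines. Much of this control acts on translation and protein turnover, which RNA levels do not show.

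The antizymes carry that control in their sequence, so their frameshift sites are shown first. The reading frame begun at the antizyme start codon ends at an early stop codon, and the full protein is made only when the ribosome slips forward by 1 base there, an event that polyamines favour. Both sites were read 5′ to 3′ from annotated mouse transcripts (GENCODE release M21, GRCm38, the assembly also named mm10) that run through the skipped base, with the stop codon in capitals. The Oaz1 site lies at chr10:80828280-80828312 and the Oaz2 site at chr9:65686257-65686289, both on the plus strand.
Oaz1: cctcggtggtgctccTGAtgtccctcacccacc
Oaz2: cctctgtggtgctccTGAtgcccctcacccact
In Oaz1 the stop codon followed 68 codons, and the annotated protein went on for 159 more after the skipped base, 227 in all. In Oaz2 it followed 32 codons, with 157 after it and 189 in all. Reads of the mRNA were counted whichever way the ribosome read it, so the levels of Oaz1 and Oaz2 given below are levels of template.

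Levels are given as CPM, the reads of a gene scaled to a library of 1000000 reads. CPM shows how many reads a gene took. Because long genes collect more reads, levels of different genes were compared as CPM per kilobase, the CPM divided by the length of all annotated exons of the gene joined together. All 9 polyamine genes had reads. Their levels summed to 1502.5 CPM, against a sum of 973391 CPM over all genes with reads. Odc1 alone made up 46.9% of the sum for the 9 genes and Azin1 19.6%. The median of the 9 was 28.4 CPM per kilobase, against 1.47 over the 19227 genes with reads and an annotated exon length. In order of CPM per kilobase the genes were Odc1, Oaz1, Azin1, Amd1, Oaz2, Sat1, Srm, Sms and Smox. Per kilobase of exon, the first 7 stood at or above the 89th percentile of those genes, while Sms and Smox were nearer the middle. This split depended on the measure. Among genes with at least 1 CPM, Srm stood at the percentile 81.6, Sms at 41.3 and Smox at 36.0. Without division by length, Srm at 74.4 stood beside Sms at 72.1 among genes with reads, with Oaz2 at 86.2 and Sat1 at 83.7. Odc1 exceeded Smox by 48.5 times per kilobase.

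**Figure D1:**
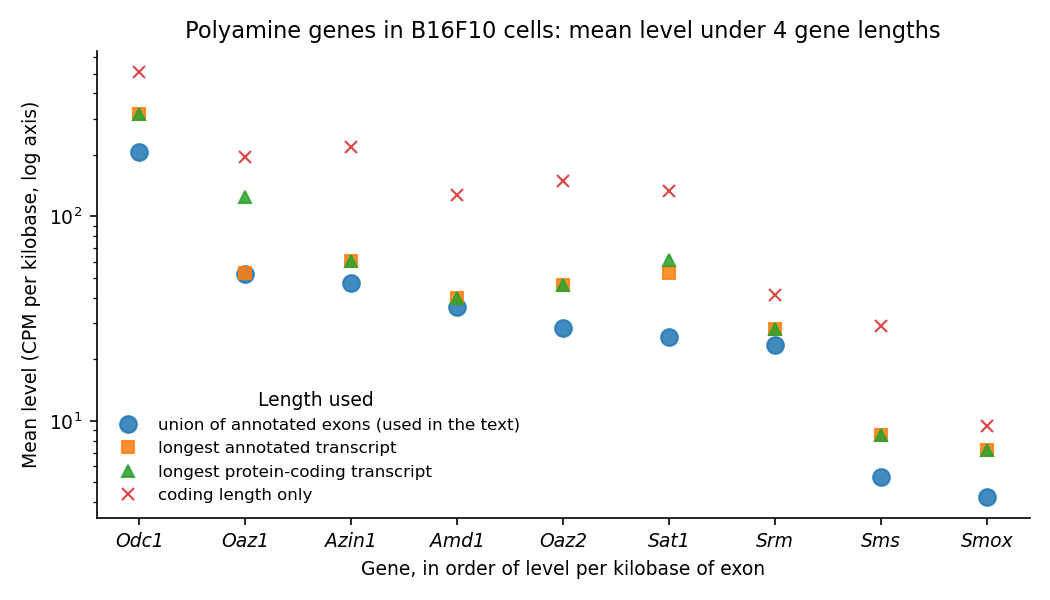
Mean level of each polyamine gene over all 6 libraries, in CPM per kilobase on a log axis, with a symbol for each of 4 ways to measure gene length. Odc1 was highest and Smox lowest under each length, whereas Oaz1, Azin1, Amd1, Oaz2 and Sat1 changed places.

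Among the enzymes of synthesis, Odc1 (ENSMUSG00000011179, chromosome 12 from 17544794 to 17551505, plus strand) encodes ornithine decarboxylase, the first and rate-limiting enzyme. Its mean was 9.46 on the log2 CPM scale, which is 704 CPM and corresponds to 13832 reads in a library of average size. At 207 CPM per kilobase it exceeded 99.3% of the genes with reads, and only 125 genes were higher. The next member, Oaz1, lay at the percentile 95.9.

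Amd1 (ENSMUSG00000075232, chromosome 10 from 40287458 to 40302186, minus strand) encodes S-adenosylmethionine decarboxylase. It averaged 128 CPM, about 2514 reads per library, and 36.1 CPM per kilobase. Srm, spermidine synthase (ENSMUSG00000006442, chromosome 4 from 148591503 to 148594993, plus strand), averaged 37.6 CPM and 23.5 CPM per kilobase. Sms, spermine synthase (ENSMUSG00000071708, chromosome X from 157443855 to 157492287, minus strand), averaged 31.8 CPM, but its annotated exons are long and its level per kilobase was 5.30. Among these 4 enzymes the levels ran from Odc1 through Amd1 and Srm to Sms. The level of Amd1 is uncertain because most of its sequence also occurs in Amd2. That of Sms is uncertain because part of its sequence also occurs in the pseudogene Sms-ps. Odc1 stood 5.72 times above Amd1, 8.80 times above Srm and 39.0 times above Sms per kilobase of exon. Over 4 ways to measure gene length these ratios ran from 3.99 to 7.98, from 8.80 to 12.3 and from 17.6 to 39.0. The step between the synthases depended on length: Srm was 4.43 times Sms per kilobase of exon and 1.43 times per kilobase of coding sequence.

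Of the regulators, Oaz1 (ENSMUSG00000035242, chromosome 10 from 80826656 to 80829290, plus strand) encodes the main antizyme. It averaged 133 CPM, about 2614 reads per library, and 52.0 CPM per kilobase. Oaz2 (ENSMUSG00000040652, chromosome 9 from 65668001 to 65690300, plus strand), a second antizyme, averaged 84.8 CPM and 28.4 CPM per kilobase. Azin1 (ENSMUSG00000037458, chromosome 15 from 38487427 to 38519266, minus strand) encodes an antizyme inhibitor, a relative of ornithine decarboxylase without its activity. It averaged 295 CPM, second among the 9 genes before division by length, and 47.2 CPM per kilobase after it. Odc1 was thus higher than both antizymes together, by 2.57 times per kilobase of exon and by 1.48 to 3.23 times over the 4 lengths. Azin1 was lower than the antizymes together, at 0.587 times their sum, and at 0.356 to 0.636 times over the 4 lengths. The annotated exons of Azin1 overlapped those of Gm49077, a gene on the opposite strand, over 358 bases. The library kit keeps the strand, but whether strand was used in counting is not given in the sources used here, so reads of the pair in that stretch cannot be told apart. Gm49077 had no row of its own in the table.

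Among the enzymes of breakdown and recycling, Sat1 (ENSMUSG00000025283, chromosome X from 155213132 to 155216449, minus strand) encodes the acetyltransferase that marks spermidine and spermine for export or oxidation. It averaged 71.3 CPM, about 1400.3 reads per library, and 25.7 CPM per kilobase. Smox, spermine oxidase (ENSMUSG00000027333, chromosome 2 from 131491496 to 131525922, plus strand), averaged 16.6 CPM and 4.26 CPM per kilobase, the lowest of the 9 on both scales. It still rested on about 326 reads per library. Sat1 was 6.03 times Smox per kilobase of exon, and 6.03 to 14.1 times over the 4 lengths. Sat1 and Sms were the members on chromosome X, with 2.23 Mb between them.

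**Figure D2:**
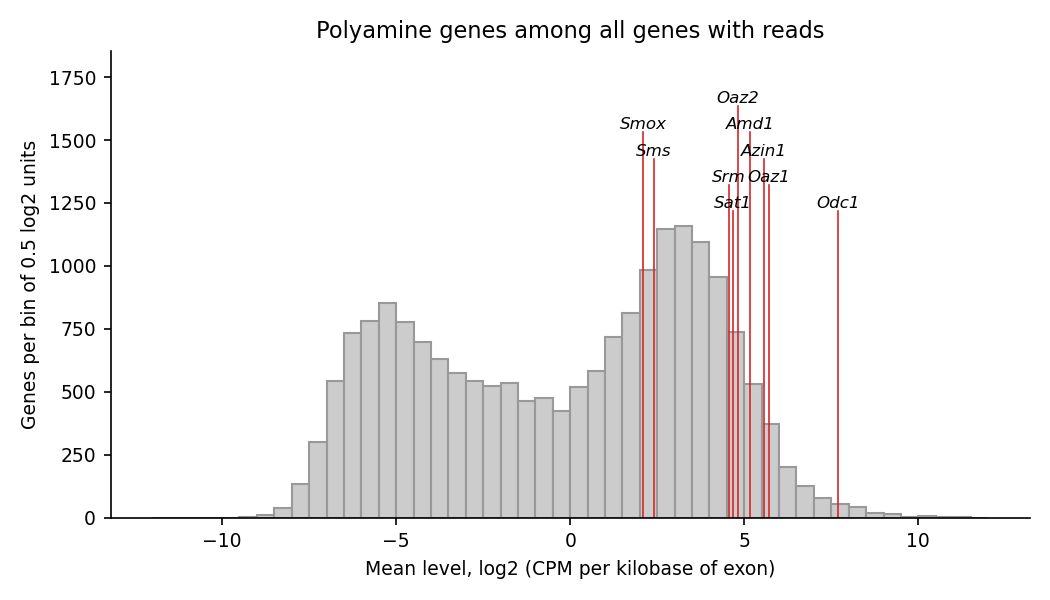
Number of genes (y axis) in bins of 0.5 log2 units of CPM per kilobase of exon (x axis) for genes with reads and an exon length, with a red line at each polyamine gene. A few of the 19227 such genes lie outside the bins and are not shown. Odc1 lies in the upper tail, 6 genes lie together on the right slope from Srm at 23.5 to Oaz1 at 52.0 CPM per kilobase, and Sms and Smox lie near the peak of the expressed genes.

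The order of some neighbours depended on the length used. Of the 8 neighbouring pairs, 5 kept their order under the 4 lengths and 3 did not. Oaz1 was 1.10 times Azin1 per kilobase of exon, and from 0.870 times with the longest transcript to 2.05 times with the longest protein-coding transcript. Amd1 was 1.27 times Oaz2 per kilobase of exon and 0.854 to 0.869 times with the other lengths. Oaz2 was 1.10 times Sat1 per kilobase of exon and 0.749 to 1.12 times with the other lengths. These pairs therefore have no fixed order in the data. Odc1 at the top, and Srm, Sms and Smox at the bottom, held their places under the 4 lengths. The order of Srm and Sms takes reads as they were assigned, with 11.9 CPM assigned to Sms-ps.

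The sequences of the members were then compared with those of other genes. Exact matches of 50 bases between the longest protein-coding transcript of each gene and annotated transcripts of other genes were found for 8 of the 9, Smox being the exception. For 7 of them, all but Smox and Azin1, matches lay in processed pseudogenes, copies of a mature mRNA inserted back into the genome. With windows laid end to end along the transcript, a match in any other gene was found for 8 of 9 polyamine genes (88.9%) and for 4802 of 11184 protein-coding genes with at least 1 CPM (42.9%). For matches in processed pseudogenes these counts were 7 of 9 (77.8%) and 1481 of 11184 (13.2%). The Azin1 matches were to Gm49077, the gene on the opposite strand. Odc1 had matches in the most genes, namely 15 processed pseudogenes and the coding gene AW146154, and 42.2% of its windows of 50 bases occurred in another gene. Whether each matching pseudogene is a copy of the Odc1 mRNA was not tested. In the table AW146154 had 11.8 CPM, and of the matching pseudogenes only Gm15645 had a row, without reads. At 150 bases, the length of 1 read of a pair, that share was only 3.55%. Most windows of Odc1 as long as a read thus had a sequence of their own among the annotated transcripts.

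Oaz1 shared 52.2% of its 50-base windows and 35.9% of its 150-base windows with Oaz1-ps. For Sms the shares were 28.7% and 26.7%, with Sms-ps the copy that shared most. Both copies had rows of their own in the table. In reads assigned, with no division by length, Oaz1-ps took 4.59 CPM beside 133 for Oaz1, and Sms-ps took 11.9 CPM beside 31.8 for Sms. Oaz2, Sat1, Srm and Smox had no match of 150 bases. How reads matching several places were counted is not given in the sources used here, and its part in the levels of Oaz1, Sms and Amd1 was not tested.

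**Figure D3:**
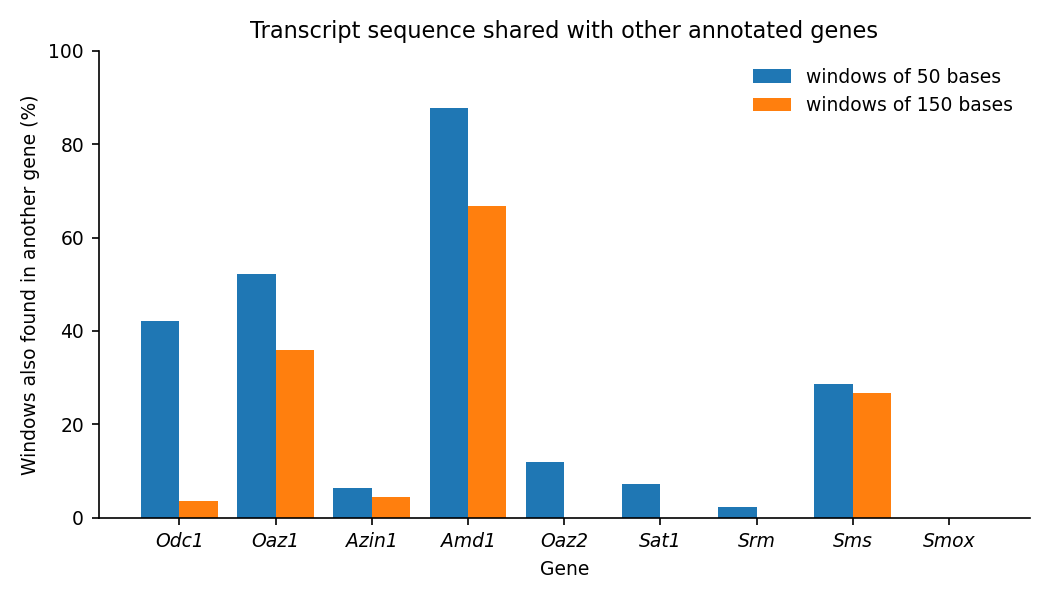
Percentage of sliding windows of 50 bases (blue) and 150 bases (orange) in the longest protein-coding transcript of each gene that also occur in a transcript of another annotated gene. Amd1 shared 87.6% and 66.8%, Oaz1 52.2% and 35.9%, and Smox shared no window of either length.

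Amd1 was the extreme case, since 87.6% of its 50-base and 66.8% of its 150-base windows occurred elsewhere, mostly in Amd2. Amd2 (ENSMUSG00000063953) is a second coding gene on chromosome 10 whose coding sequence of 1002 bases differs from that of Amd1 at 1 base, G796C, with positions counted from the A of the start codon and the Amd1 base first. Coding bases 781 to 840 of both genes are shown as annotated in GENCODE release M21, with the differing base in capitals.
Amd1: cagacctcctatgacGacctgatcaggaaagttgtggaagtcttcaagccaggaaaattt
Amd2: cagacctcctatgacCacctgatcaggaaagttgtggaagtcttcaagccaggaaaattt
Despite this likeness the table gave Amd1 128 CPM and Amd2 1.93 CPM, a ratio of 60.3 per kilobase of exon. Reads within the shared stretches could belong to either gene, so both levels are uncertain and the ratio describes reads as they were assigned.

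The wider pathway was examined through 25 further genes of precursor supply, synthesis, regulation, breakdown, methionine salvage, hypusine formation and transport. All 25 had reads, 22 reached 1 CPM (88.0%, against 56.2% of all genes with reads), and their median was 8.43 CPM per kilobase. Of these, 18 lay above the median gene with reads, as did all 9 members. Among genes with at least 1 CPM, however, the members Sms and Smox lay below the middle, at the percentiles 41.3 and 36.0. Close relatives of the members lay below them. Paox, a peroxisomal polyamine oxidase, had 1.22 CPM per kilobase, below Smox by 3.49 times (2.38 to 5.60 over the 4 lengths). Sat2 had 1.41, which was 18.3 times less than Sat1 (18.3 to 34.0 over the lengths), and Satl1 had 0.0590. Azin2, the other antizyme inhibitor, had 0.462, or 102 times less than Azin1 (67.3 to 163 over the lengths), and Oaz3, an antizyme best known from testis, had 1.93, or 14.7 times less than Oaz2 (5.14 to 14.7 over the lengths).

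In precursor supply, enzymes that link ornithine to glutamate and proline were abundant. Oat, ornithine aminotransferase, had 172 CPM per kilobase of exon beside 207 for Odc1. Before division by length it had 405 CPM beside 704 for Odc1. Aldh18a1, which makes the proline and ornithine precursor from glutamate, had 37.9 CPM per kilobase. Otc and Agmat had 0.00962 and 0.0353, both resting on an average of under 1 read per library. Mat2a, the synthase of S-adenosylmethionine, had 108.

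Methionine salvage recycles the methylthioadenosine released by both synthases. Its 5 listed genes were all above the median gene, from Mri1 at 4.54 to Adi1 at 66.1 CPM per kilobase, and Mtap, the first enzyme, had 32.0. Spermidine also donates the side chain of hypusine, a modified lysine in the translation factor eIF5A. Eif5a was the highest of the pathway genes per kilobase of exon, at 254 CPM per kilobase. Before division by length it had 603 CPM beside 704 for Odc1. The share of Eif5a sequence found in other genes was not measured. The enzymes that form hypusine were lower, with Dhps at 8.45 and Dohh at 5.67 CPM per kilobase. Of the transport genes, Atp13a3 had 51.6 and Atp13a2 had 18.3, both P-type ATPases that move polyamines, and Slc3a2, the heavy chain of amino acid transporters, had 101.

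**Figure D4:**
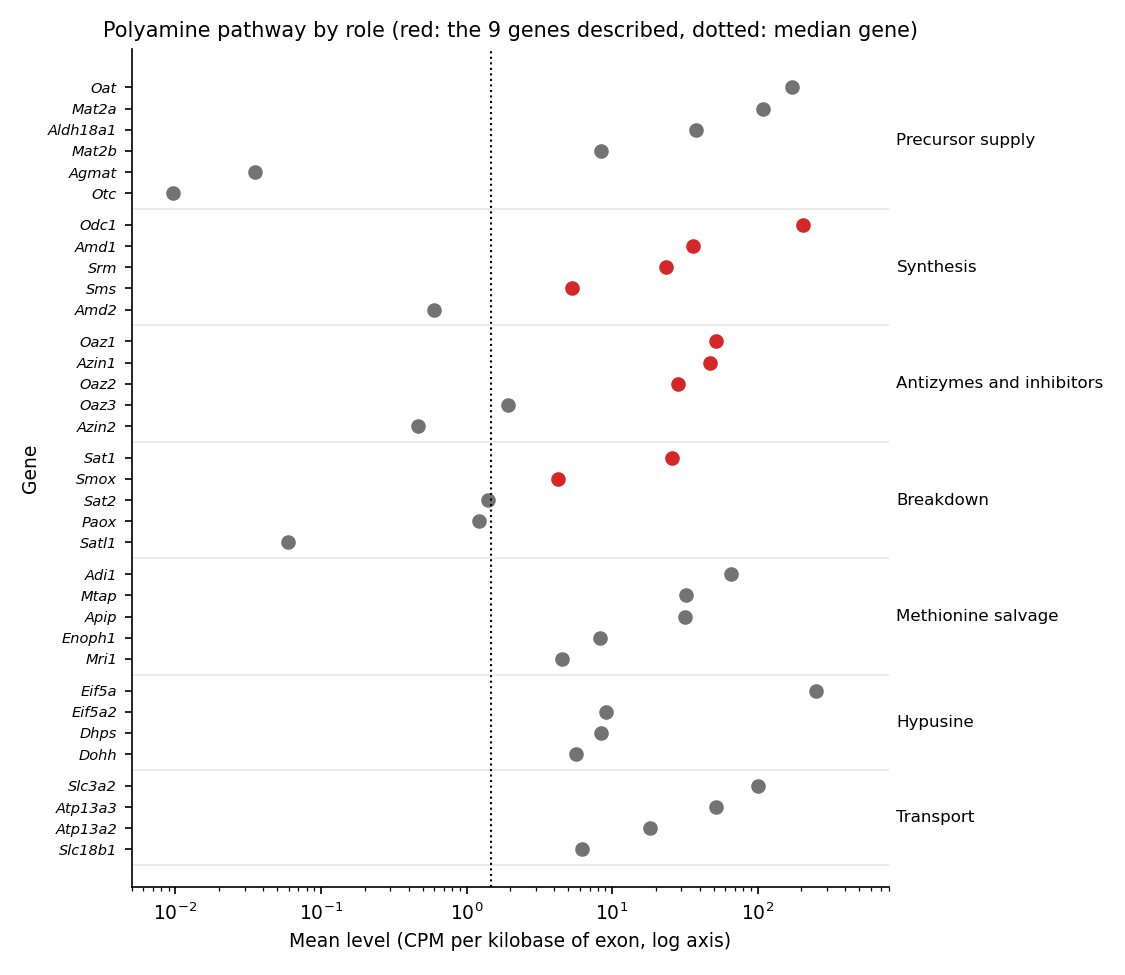
Mean level in CPM per kilobase of exon (x axis, log scale) of the 9 polyamine genes (red) and 25 further pathway genes (grey), grouped by role, with a dotted line at the median gene, 1.47. Agmat, Otc, Amd2, Azin2, Satl1, Paox and Sat2 lie to the left of the line, and the listed genes of salvage, hypusine formation and transport lie to its right.

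The labelled cell type was checked against its markers. All 7 melanocyte markers (Mlana, Pmel, Tyr, Tyrp1, Dct, Mitf and Sox10) had between 109 and 7052 CPM. The 4 keratinocyte markers had at most 0.0367 CPM, Krt5 being without reads. Leukocyte markers reached 0.271 CPM over 5 genes, endothelial markers 1.21 over 3 and fibroblast markers 3.28 over 4. In a mean over cultures, fewer cells expressing a gene and less RNA per cell cannot be told apart.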

How the data were processed

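The RNA sequenced came from B16F10 cells after 6 h with 0.01% OZO (3 libraries) or OLO (3 libraries). According to the methods and the submitters' processing notes, reads were aligned to mm10 with HISAT2 (2.1.0), counted per gene with featureCounts (2.1.1) and modelled with limma-voom (3.58.1). The methods name a UCSC annotation for a separate StringTie step. The strand setting, the annotation used in counting and the treatment of reads matching several genes are not given in the sources used here. The deposited table holds 1 row per gene with a log2 mean expression over all 6 libraries, which the authors computed with voom, as log2 CPM after adding 0.5 to each count. It also holds the log2 fold changes, moderated statistics, p-values and log odds of the authors' own comparison, which were not used. With only means over libraries in use, nothing was tested, levels have no interval and the depth of each library is unknown.

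The lowest mean was shared, within 1e-09, by 6025 genes, taken as genes without reads. It gave a geometric mean of the scaled library sizes of 19641946 reads, so 1 CPM stood for 19.6 reads. Exon lengths came from GENCODE M21 on GRCm38, in which 23882 rows had one, and 19227 of these had reads. Windows of 50 and 150 bases were matched exactly on both strands against annotated transcripts, genome sequence not being searched. Genes named were the 9 members, the listed pathway genes, the cell type markers and genes sharing sequence with a member. The members and lists were chosen with earlier results of these data known. Some genes of the pathway list are not reported here and were left out of its counts. The planned test of OZO against OLO required values of single libraries and was not made. Python 3.11.15, numpy 2.4.6, pandas 2.3.3, scipy 1.17.1 and matplotlib 3.10.9 were used.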

Additional observations from a re-analysis of the deposited data

How the results depend on the processing

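Levels depended mainly on the gene length. The median of the 9 genes, 28.4 CPM per kilobase of exon, was 46.0 with the longest annotated transcript, 46.0 with the longest protein-coding transcript and 134 with the annotated coding length, the last 2 lengths being chosen after seeing the data. Of the 36 pairs of genes, 31, 32 and 33 kept their order under these 3 lengths, in that sequence, and 35 did without division by length. Taking off the 0.5 reads that voom adds kept all 36. These alternatives for the order, other than the one without division, were chosen after seeing the data. The median percentile of the 9 genes, 91.2, was 85.2 among genes with at least 1 CPM and 92.9 among all genes of the table with a length. Among genes with at least 1 CPM, Sms fell to the percentile 41.3 and Smox to 36.0. A shorter length raises a level and a stricter set of genes lowers a rank by construction. No listed pathway gene was without reads, so leaving such genes out changed nothing, and the RefSeq protein length was not run.

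No paired analysis was possible because each gene has 1 mean over the 6 libraries. For the same reason no library was left out, and other tests, normalizations and filters on counts were not run.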
